A study of Bos taurus with 50 samples.

Results

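Endometrial RNA from cows whose ovaries had begun to cycle but gave no progesterone at week 5 after calving (CycNoP4, 4 libraries) was compared with that from acyclic cows of the same week (NoCycW5, 12 libraries). The 16 libraries were taken from the 50 in the series by the group and week in their labels, and no measured value was used to choose them. The remaining libraries came from week 5 cows that were cycling with progesterone (CycW5, 10 libraries) and from week 9 biopsies. All cows were Holstein x Jersey cows in their first lactation, and each library was made from 1 biopsy of the endometrium, the inner lining of the uterus. CycNoP4 cows had a high concentration of progesterone (P4) in the week before the biopsy and a low one at the biopsy. Some of them had no corpus luteum, the ovarian gland that secretes P4, and others had one with a large cavity. NoCycW5 cows had a follicle, no corpus luteum and P4 below detection in every week up to week 5. CycW5 cows had a corpus luteum and P4 at week 5. The CycNoP4 group is therefore mixed in its ovarian structures, and its label does not say on which day of the cycle each cow was sampled.

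In a cycling cow, oestradiol from the growing follicle and P4 from the corpus luteum act in turn on the endometrium, and the glands, the surface epithelium and the vessels change their gene expression with each phase. P4 is carried by blood to nuclear receptors in stroma and epithelium. Falling P4 near the end of the cycle precedes the rise of the oxytocin receptor and the release of prostaglandin F2 alpha, and the uterus then comes under oestrogen again. In acyclic cows after calving the follicles do not ovulate, so the endometrium is not exposed to luteal P4.

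The deposited table holds raw read counts for 18830 genes. The CycNoP4 libraries (51, 56, 58 and 64, by the numbers in their labels) held 28307781 to 32715330 counted reads and the NoCycW5 libraries 24235270 to 32446681, and no difference between the group means was detected (exact two-sided permutation test over 1820 regroupings, P = 0.39). The 10 most abundant genes took 9.36% ± 1.30 (SD, n = 4) of the reads in CycNoP4 cows and 8.13% ± 1.62 (SD, n = 12) in NoCycW5 cows (exact permutation test, P = 0.174, adjusted over 5 library measures 0.295). The TMM scaling factor was 0.945 ± 0.0825 (SD, n = 4) against 1.02 ± 0.0494 (SD, n = 12), with an exact permutation P of 0.0659 (adjusted 0.295). The exact permutation P was 0.188 for the number of genes with at least 10 reads and 0.236 for the summed CPM of the mitochondrial genes ND3 and CYTB. Without library 64 the unadjusted exact permutation P was 0.0044 for the TMM factor (CycNoP4 mean 0.91), 0.0484 for the number of genes with at least 10 reads, 0.0747 for the share of the 10 most abundant genes, 0.312 for the read totals and 0.343 for ND3 and CYTB. The part of these library measures in the results was not tested. No gene symbols come with the table. Symbols were available for 2324 genes, through pairings in the tables of the study, which list genes the study had called in one of its own comparisons. Because some of those comparisons used the same NoCycW5 libraries, genes with a symbol are not a neutral sample of the transcriptome. None of the listed markers of ciliated cells, smooth muscle, T and NK cells, B cells, macrophages, neutrophils, mast cells or erythroid cells could be matched in this way, so these cell types were not checked here. EPCAM, the epithelial adhesion molecule, and PDGFRA, a receptor of stromal cells, were read in all 16 libraries, at 89.3 CPM or more for EPCAM and at 266 CPM or more for PDGFRA. CPM is a gene's reads scaled to a common normalized library total.

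Library 64 did not stand with the other CycNoP4 libraries. Each library was placed on a line from the mean of the other NoCycW5 libraries (0) to the mean of the other CycNoP4 libraries (1), with genes that were called at 2-fold or more when that library was left out. Libraries 51, 56 and 58 were at 1.06, 1.02 and 0.58, over 80, 219 and 467 genes, and library 64 was at 0.10 over 1604 genes. The NoCycW5 libraries were between -0.22 and 0.67, the highest of them library 68, so libraries 58 and 64 were both within their range. On the second principal component, which held 14.8% of the variance among week 5 libraries, library 64 was at -4.5 and the other CycNoP4 libraries were between 64.1 and 72.7. Library 68 was at 48.5, the highest of the NoCycW5 libraries. No detail in the labels sets library 64 or 68 apart, and neither was removed. Values without library 64 are given for the counts and lists and for many of the genes.

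**Figure D1:**
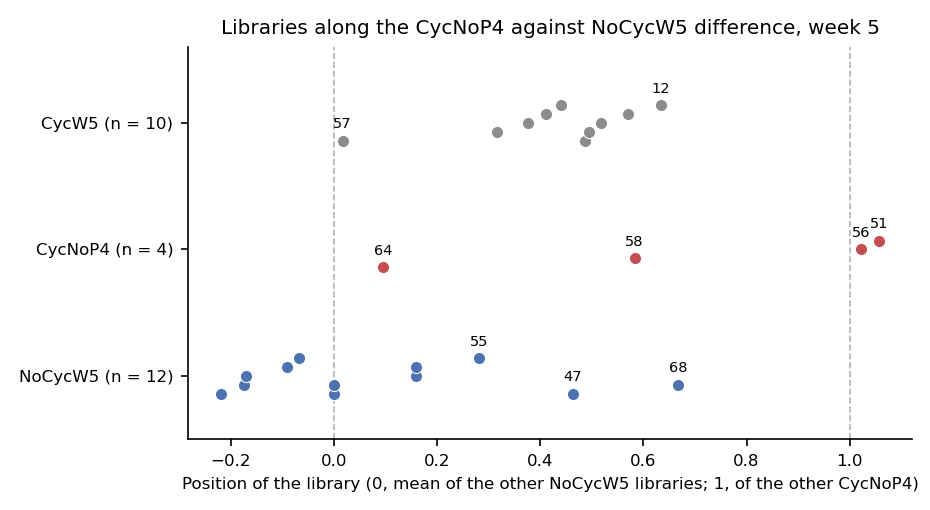
Position of each week 5 library (points, by group on the vertical axis) between the mean of the other NoCycW5 libraries (0) and the mean of the other CycNoP4 libraries (1) on the horizontal axis. Libraries 51 and 56 sit near 1. Library 58 at 0.58 and library 64 at 0.10 are both within the range of the NoCycW5 libraries, which reach 0.67.

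There were 2319 differentially expressed genes (DEG) among 15738 tested, or 14.7% of them, with P adjusted by Benjamini-Hochberg (BH) at 0.05 or below (edgeR quasi-likelihood test). Expression was greater in CycNoP4 cows for 1396 genes (8.87%) and lesser for 923 (5.86%), and 665 (4.23%) differed by at least 2-fold. The median log2 difference over all genes tested was 0.00. Among the 2226 tested genes with a symbol 285 were greater (12.8%) and 68 lesser (3.05%), the shares beside which the counts of each gene list or family are to be read, and their median log2 difference was 0.15. For 137 genes (0.871%) the CycNoP4 and NoCycW5 libraries did not overlap in CPM, with all 4 CycNoP4 libraries above for 75 (0.477%) and below for 62 (0.394%). Of these, 26 above (1.17% of tested genes with a symbol) and 6 below (0.27%) had a symbol. Nothing in the labels links a library to a cow, so P values measure the spread between these libraries. In bulk tissue, fewer cells of a type and less RNA per cell cannot be told apart.

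The count of DEG moved widely with the libraries used. It was 4981 without library 64, and these included 2294 (98.9%) of the 2319 genes. It was 132 without library 51, 369 without library 56 and 1212 without library 58. Among the NoCycW5 libraries only library 68 moved the count more than 1.5-fold when left out, to 3494. There were 86 genes called in all 16 fits with 1 library left out, 62 of them greater and 24 lesser in CycNoP4 cows, and 21 of the 86 had a symbol. Of the 49 genes chosen by rule for description 47 were DEG, and 46 of these were still DEG without library 64, 13 without library 51, 22 without library 56 and 31 without library 58.

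**Figure D2:**
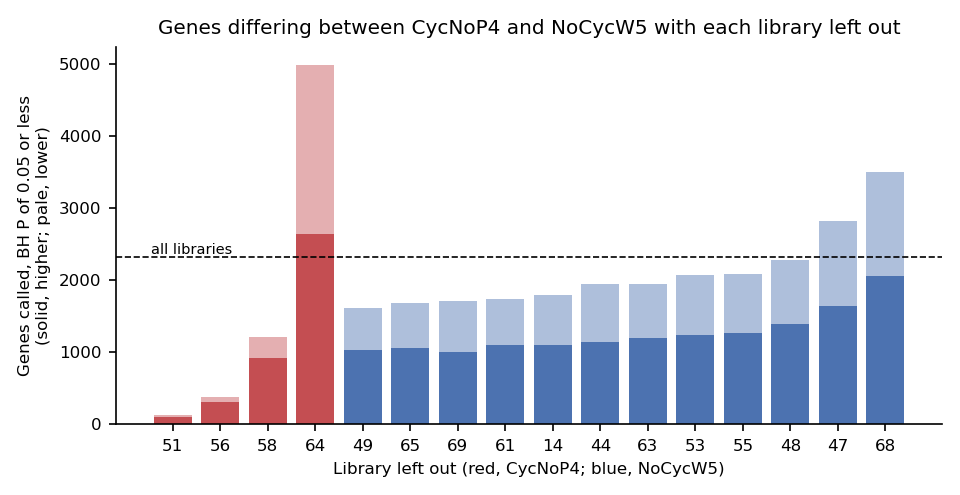
Number of DEG between CycNoP4 and NoCycW5 cows (vertical axis, genes at BH P of 0.05 or less) with each library left out in turn (horizontal axis, red for CycNoP4 and blue for NoCycW5 libraries). The solid part of a bar counts genes greater in CycNoP4 cows and the pale part lesser ones. The count is 2319 with all libraries (dashed line), 132 without library 51 and 4981 without library 64.

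The 21 genes with a symbol that were called in every fit with 1 library left out included PLS1, LRRN1, SULF1, FAM213A and SERPINA1. All 5 were greater in CycNoP4 cows. PLS1 encodes plastin 1, which bundles actin in the microvilli of epithelial cells. Its level was 144, 105, 90.9 and 76.9 CPM in libraries 51, 56, 58 and 64, and 17.01 (lowest), 34.4 (median) and 49.6 (highest) CPM in NoCycW5 cows. Every CycNoP4 library, library 64 included, was above every NoCycW5 library. The log2 difference was 1.60 ± 0.23 (SE, BH P = 0.00108), and it was 1.40 to 1.72 when one of the CycNoP4 libraries was left out. CycW5 cows had a median of 65.9 CPM, and PLS1 was greater in CycW5 than in NoCycW5 cows (log2 difference 1.11, BH P = 8.7e-05), a comparison in which 4313 genes (27.4%) were called.

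LRRN1, a leucine-rich repeat membrane protein, was at 213, 222, 245 and 116 CPM in libraries 51, 56, 58 and 64 and at 30.7, 55.6 and 102 CPM (lowest, median and highest) in NoCycW5 cows, so that the groups did not overlap. The log2 difference was 1.84 ± 0.33 (BH P = 0.0029), and 2.025 in LRRN1 without library 64. SULF1 removes sulphate groups from heparan sulphate at the cell surface. It was at 357, 355 and 322 CPM in libraries 51, 56 and 58 and at 159 CPM in library 64, which lay below the highest NoCycW5 library (168 CPM, median 108). The log2 difference in SULF1 was 1.43 ± 0.25 (BH P = 0.00242) and 1.64 without library 64. Both genes were also greater in CycNoP4 than in CycW5 cows, a comparison in which 2786 genes (17.7%) were called, with log2 differences of 1.01 for LRRN1 (BH P = 0.0497) and 0.80 for SULF1 (BH P = 0.0347). The comparison with CycW5 cows and the one with NoCycW5 cows share the CycNoP4 libraries. For SULF1 library 64 (159 CPM) was below the CycW5 mean of 170.9 CPM. Calls that involve CycW5 cows, for these and other genes, were not checked with 1 library left out.

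FAM213A, which encodes a peroxiredoxin-like protein, was at 929, 1242, 434 and 220.1 CPM in libraries 51, 56, 58 and 64 and at 86.4, 94.5 and 247 CPM (lowest, median and highest) in NoCycW5 cows. Library 64 was within the range of NoCycW5 cows and the other 3 were above it. The log2 difference was 2.61 ± 0.43 (BH P = 0.00175). SERPINA1 encodes alpha-1-antitrypsin, an inhibitor of neutrophil elastase. It was at 4.88, 25.5 and 19.3 CPM in libraries 51, 56 and 58, whereas library 64 was at 0.10 CPM and no NoCycW5 library exceeded 0.231 CPM. Its log2 difference of 7.42 ± 0.99 (BH P = 0.00045) is from a gene that was close to 0 in NoCycW5 cows, so the size of the fold is poorly fixed. Without library 64 the log2 difference was 2.905 for FAM213A, 7.83 for SERPINA1 and 3.09 for TMEM114. TMEM114, a membrane protein related to the claudins, was low in both groups, at 0.434 to 2.98 CPM in CycNoP4 and 0.121 to 0.426 CPM in NoCycW5 cows, and the groups did not overlap (log2 difference 2.76 ± 0.48, BH P = 0.00242).

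**Figure D3:**
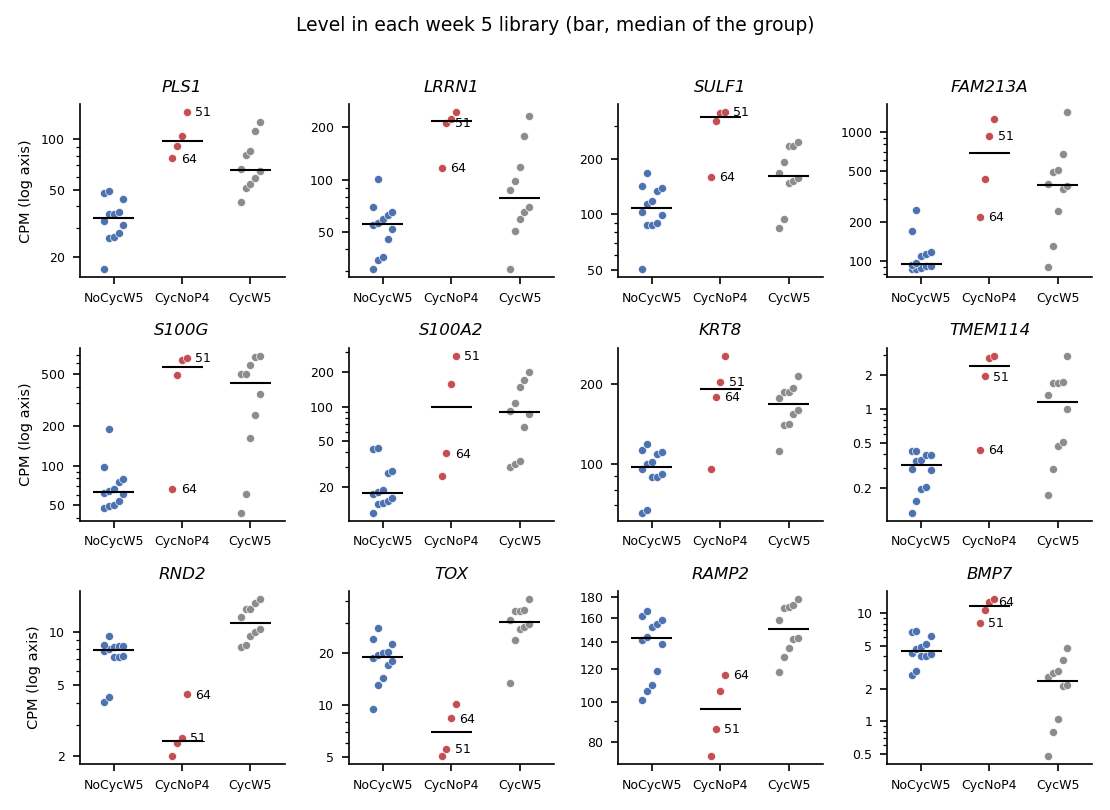
CPM on a log axis (vertical) of genes named in the text in each week 5 library (points) of the NoCycW5, CycNoP4 and CycW5 groups, with the median of each group as a bar and CycNoP4 libraries 51 and 64 numbered. PLS1 is at 76.9 CPM or more in CycNoP4 cows and at 49.6 CPM or less in NoCycW5 cows, whereas for FAM213A library 64 (220.1 CPM) falls within the NoCycW5 range.

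Of the gene lists, sterol synthesis had the largest share of called members. The list holds the enzymes that build cholesterol from acetyl-CoA and other proteins of sterol balance. Of its 25 genes 16 had an identifier and were tested, and 15 of the 16 were greater in CycNoP4 cows, 0 lesser. These 16 have a symbol here because the study had called them in one of its comparisons. Some of those comparisons used the same NoCycW5 libraries, so the share called and its direction are not independent evidence. The median log2 difference was 1.19, against 0.15 over tested genes with a symbol. The summed level of the list was 1976, 2760, 1130 and 496 CPM in libraries 51, 56, 58 and 64, and 474, 608 and 912 CPM (lowest, median and highest) in NoCycW5 cows. Libraries 51, 56 and 58 were above every NoCycW5 library and library 64 was near the lowest of them. The highest NoCycW5 library was library 68. CycW5 cows had a median sum of 1372.5 CPM, and the median log2 difference between CycW5 and NoCycW5 cows was 1.06. The number of sterol genes called was 15 without library 64 (median log2 difference 1.46), 14 without library 58, 4 without library 51 (median 1.06) and 3 without library 56 (median 0.81). It was 14 or 15 when a NoCycW5 library was left out.

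Among the enzymes, HMGCS1 makes HMG-CoA near the start of the pathway. It was at 148, 367, 111 and 34.9 CPM in libraries 51, 56, 58 and 64 against 25.9, 38.6 and 70.2 CPM (lowest, median and highest) in NoCycW5 cows, a log2 difference of 1.97 ± 0.35 (BH P = 0.00276). Libraries 51, 56 and 58 were above the NoCycW5 range and library 64 was within it. The HMGCS1 difference was 2.31 without library 64 (BH P = 9.12e-05) and 1.22 without library 56 (BH P = 0.0536).

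Later steps moved in the same way. SQLE, the epoxidase that commits squalene to sterols, was at 177, 218, 91.5 and 15.003 CPM in libraries 51, 56, 58 and 64 against 16.9, 31.95 and 67.5 CPM (lowest, median and highest), a log2 difference of 1.95 ± 0.38 (BH P = 0.00445). DHCR7, which makes cholesterol from 7-dehydrocholesterol, was at 51.6, 91.0, 39.7 and 24.2 CPM against 17.6, 20.2 and 33.2 CPM, a log2 difference of 1.22 ± 0.22 (BH P = 0.00254). Without library 64 the differences were 2.32 for SQLE and 1.46 for DHCR7. For both genes libraries 51, 56 and 58 were above the NoCycW5 range, and library 64 was below it for SQLE and within it for DHCR7. SQLE and DHCR7 were called with any 1 library left out. INSIG1, the sterol-regulated protein that holds the pathway's activator in the endoplasmic reticulum, was at 84.8, 154, 31.7 and 17.2 CPM against 18.4, 23.9 and 32.6 CPM (log2 difference 1.55 ± 0.33, BH P = 0.00811), with only libraries 51 and 56 above the NoCycW5 range, and was not called without library 51 (BH P = 0.0569) or 56 (BH P = 0.119). Further called members had log2 differences of 1.38 for CYP51A1, 1.20 for IDI1, 1.17 for MSMO1, 1.07 for LSS, 1.04 for STARD4, 0.90 for NSDHL, 0.75 for FDFT1, 0.74 for MVD and 0.65 for PMVK. TM7SF2, a sterol reductase, was the tested member not called (log2 difference 0.22, BH P = 0.498).

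**Figure D4:**
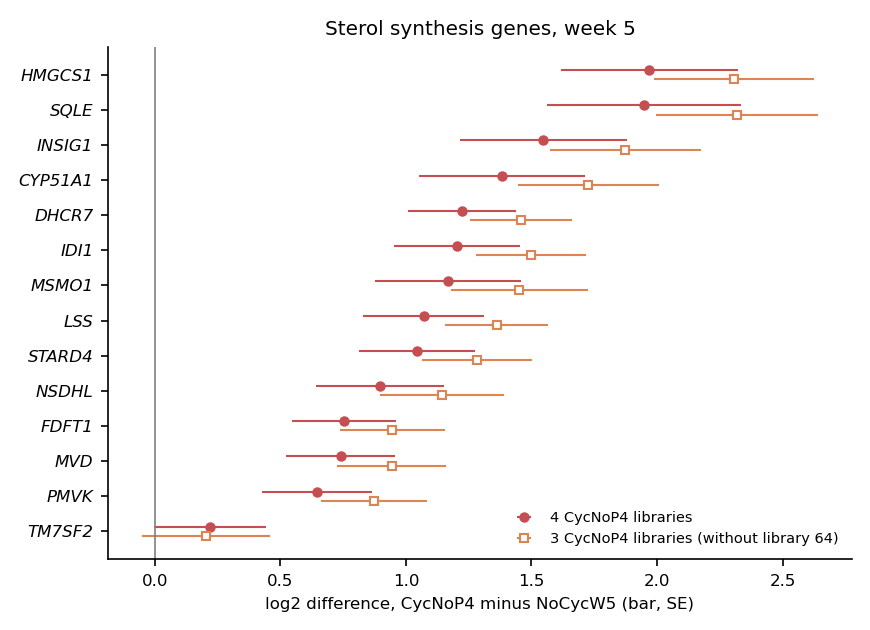
Log2 difference (horizontal axis, bar for the SE) between CycNoP4 and NoCycW5 cows for 14 of the tested sterol synthesis genes (vertical axis), with all 4 CycNoP4 libraries (filled circles) and without library 64 (open squares). The differences run from 0.22 for TM7SF2 to 1.97 for HMGCS1, which is at 2.31 without library 64.

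Some markers of epithelium were greater in CycNoP4 cows. Of 15 listed epithelial markers 7 had a symbol and were tested. KRT8, GRHL2 and CLDN7 were called, 0 were lesser, and the median log2 difference was 0.86. The 7 had a symbol because the study had called them in one of its comparisons, so they are a selected part of the list. Their summed level was 1143.5, 865, 575 and 634 CPM in libraries 51, 56, 58 and 64 and 275 to 564 CPM in NoCycW5 cows, without overlap. EPCAM was at 278 to 542 CPM against 89.3 to 299 CPM and was just outside the threshold (log2 difference 0.88, BH P = 0.051), and it was called without library 64 (1.01, BH P = 0.0257). The 5 tested of 15 endothelial markers had a median log2 difference of -0.45. Their summed level was 332 to 528 CPM in CycNoP4 and 330 to 764 CPM in NoCycW5 cows. PDGFRA, the only stromal marker tested of 14 listed, was at 266 to 729 CPM against 311 to 670 CPM. The part that the share of epithelium in a biopsy had in the other results was not tested.

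KRT8, a keratin of simple epithelia, was at 204, 255, 95.7 and 178 CPM in libraries 51, 56, 58 and 64 and at 65.7, 97.5 and 119 CPM (lowest, median and highest) in NoCycW5 cows. Library 58 was within the NoCycW5 range and the other 3 above it. The log2 difference was 0.93 ± 0.17 (BH P = 0.0033), and KRT8 was called with any 1 library left out. GRHL2, a transcription factor of epithelial junctions, had a log2 difference of 0.85 (BH P = 0.0299) and CLDN7, a claudin, one of 0.86 (BH P = 0.0328). GRHL2 was called without library 64 (BH P = 0.0134) but not without library 51, 56 or 58, and CLDN7 was not called without library 51 or 56. The list had 4 called members without library 64 and 1 without library 51 or 56.

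Genes of cell junctions and of adhesion to the matrix were looked at as families after their values had been seen. Claudins form the strands of tight junctions, and 4 of 7 tested were greater in CycNoP4 cows. CLDN8 was at 19.3, 13.9, 30.2 and 15.8 CPM in libraries 51, 56, 58 and 64 against 0.885, 4.67 and 9.05 CPM (lowest, median and highest), a log2 difference of 2.04 ± 0.55 (BH P = 0.0213). CLDN1 was at 91.1, 77.2, 102 and 71.9 CPM against 15.3, 42.1 and 66.0 CPM, a log2 difference of 1.08 ± 0.32 (BH P = 0.0299). For these 2 claudins every CycNoP4 library, library 64 included, was above every NoCycW5 library. With library 51 or 56 left out 0 claudins were called, 1 was called without library 58 and 4 without library 64.

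Among the integrins, which anchor cells to matrix, ITGA2, ITGB6 and ITGA6 were greater of 6 tested. ITGA2, the collagen-binding alpha 2 subunit, was at 134, 51.4, 43.1 and 17.5 CPM in libraries 51, 56, 58 and 64 against 6.67, 13.8 and 19.96 CPM (lowest, median and highest). Library 64 was within the NoCycW5 range and the other 3 above it. The log2 difference in ITGA2 was 2.19 ± 0.38 (BH P = 0.00242), 2.499 without library 64 and 1.47 without library 51 (BH P = 0.0596). The log2 difference of ITGB6, the beta subunit of an integrin that activates latent TGF-beta, was 2.43 (BH P = 0.0144), and that of ITGA6, a laminin-binding subunit, was 0.66 (BH P = 0.0242). No integrin was called without library 51 and 1 was called without library 56.

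The S100 proteins bind calcium. S100G, or calbindin D9k, carries calcium through epithelial cells, and it was at 664, 633 and 487 CPM in libraries 51, 56 and 58 and at 66.6 CPM in library 64, against 47.4, 62.8 and 189 CPM (lowest, median and highest) in NoCycW5 cows. The 3 libraries were all above the NoCycW5 range and library 64 was near its median. The log2 difference in S100G was 2.63 ± 0.49 (BH P = 0.00343) and 2.997 without library 64, and it was called with any 1 library left out. Mean S100G was 462.5 CPM in CycNoP4 and 380 CPM in CycW5 cows. S100A2 was at 279, 159, 24.8 and 39.1 CPM against 11.9, 17.6 and 43.5 CPM (log2 difference 2.51 ± 0.47, BH P = 0.00343), and only libraries 51 and 56 were above the NoCycW5 range. Without library 51 the difference was 1.75 (BH P = 0.0843).

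Further genes that kept their call with any 1 library left out were named after their values had been seen. PKP1, a desmosome plaque protein, was at 8.20 to 27.98 CPM in CycNoP4 cows against 0.405 to 6.48 CPM (log2 difference 2.25). SEL1L3 was at 55.2 to 98.0 CPM against 18.3 to 46.6 CPM (1.33), AFAP1, an actin-binding protein, at 22.7 to 33.6 CPM against 9.57 to 21.7 CPM (0.94), and SFTA2 at 13.5 to 18.3 CPM against 2.0 to 11.1 CPM (1.38). The groups did not overlap for any of these 4. SEC14L1 (0.88), LPIN1 (0.89), METTL9 (0.77) and NRCAM (3.66) were also greater in CycNoP4 cows. The groups overlapped for each of them, for SEC14L1 at 85.2 to 191.0 CPM against 59.1 to 93.2 CPM. NRCAM was not called by limma-voom, an alternative test, with or without sample weights. CycW5 cows had a higher mean than CycNoP4 cows for SEL1L3 (109.7 against 77.8 CPM), SFTA2 (16.49 against 15.85 CPM) and NRCAM (33.68 against 10.72 CPM). They had a lower mean for PKP1, AFAP1, SEC14L1, LPIN1 and METTL9.

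Genes of the luteal phase were compared because CycNoP4 cows had been under P4 in the week before. Of 21 tested members of a list of genes known from the luteal endometrium 4 (19%) were greater (MCOLN3, PLLP, SLC1A1 and PLA2G10) and 0 lesser, against 12.8% greater among all tested genes with a symbol. The median log2 difference was 0.63 between CycNoP4 and NoCycW5 cows and 2.38 between CycW5 and NoCycW5 cows, which share the NoCycW5 libraries. Its members have a symbol here because the study had called them in one of its comparisons, so their direction between CycW5 and NoCycW5 cows is not independent evidence. The summed level was 1108 to 2781 CPM in CycNoP4, 911 to 1780 CPM in NoCycW5 and a median of 3435 CPM in CycW5 cows. Without library 51 there were 0 members called, without library 56 there was 1, without library 58 there were 2 and without library 64 there were 5, and the count was 1 to 5 with a NoCycW5 library left out.

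MCOLN3, an endolysosomal ion channel, was at 159, 36.5, 20.4 and 11.8 CPM in libraries 51, 56, 58 and 64 against 1.85, 4.01 and 14.8 CPM (lowest, median and highest) in NoCycW5 cows (log2 difference 3.39 ± 0.63, BH P = 0.00338). Libraries 51, 56 and 58 were above the NoCycW5 range, and without library 51 the MCOLN3 difference was 2.08 (BH P = 0.104). SLC1A1, a carrier of glutamate and aspartate, was at 599, 527, 314 and 127 CPM against 31.01, 79.2 and 258 CPM (log2 difference 1.85 ± 0.59, BH P = 0.0387), and PLLP, a membrane protein of myelin and epithelia, at 2.44 to 7.32 CPM against 0.503 to 2.64 CPM (1.70 ± 0.54, BH P = 0.0384). PLLP was well below CycW5 cows (CycNoP4 minus CycW5 log2 difference -3.17, BH P = 0.0032), whereas for MCOLN3 and SLC1A1 the log2 differences from CycW5 cows were -1.03 and -1.26. Neither SLC1A1 nor PLLP was called without library 51, 56 or 58.

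DKK1, a secreted inhibitor of Wnt signalling that P4 induces in the endometrium, was lower than NoCycW5 in every CycNoP4 library, at 1.94 to 3.54 CPM against 4.01 to 7.51 CPM, but missed the threshold (log2 difference -1.06 ± 0.37, BH P = 0.0533). Without library 64 it was called (-1.22, BH P = 0.033). It was named after its values had been seen. DKK1 was greater in CycW5 than in NoCycW5 cows (log2 difference 1.69, BH P = 2.57e-05). None of the 10 tested genes of the Wnt list, which holds 39, was called, and with library 64 left out DKK1 was the 1 called.

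The 4 tested receptors for steroids and oxytocin, of 10 listed, were not called. ESR1, the oestrogen receptor, was at 109, 164, 236 and 127 CPM in libraries 51, 56, 58 and 64 and at 54.0, 125 and 228 CPM (lowest, median and highest) in NoCycW5 cows (log2 difference 0.34 ± 0.30, BH P = 0.422). OXTR, the oxytocin receptor, was at 248, 274, 170.1 and 119 CPM against 79.5, 109.9 and 218 CPM. Libraries 51 and 56 were above the NoCycW5 range for OXTR and the others within it, and the log2 difference was 0.74 ± 0.44 (BH P = 0.234). Against CycW5 cows, whose median was 43.02 CPM, OXTR was greater in CycNoP4 cows (log2 difference 2.17, BH P = 0.00207). The gene for the P4 receptor, PGR, had no identifier and was not analysed here. Of a list of 30 genes that oestrogen induces in the uterus or other tissues only 6 were tested. None of the 6 was called, and with library 64 left out 2 were greater.

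Among growth factors and their binding proteins 3 of 15 tested (20%) were greater, namely IGFBP2, BMP7 and TGFBR1, against 12.8% of all tested genes with a symbol. IGFBP2, which binds insulin-like growth factors, was at 512, 77.0, 174 and 31.2 CPM in libraries 51, 56, 58 and 64 against 3.7, 14.1 and 48.0 CPM (lowest, median and highest) in NoCycW5 cows. Library 64 was within the NoCycW5 range and the other 3 were above it (log2 difference 3.26 ± 0.63, BH P = 0.00405). The IGFBP2 difference was 2.19 without library 51 (BH P = 0.097). BMP7, a ligand of the TGF-beta family, was at 8.12, 13.6, 10.7 and 12.7 CPM against 2.68, 4.45 and 6.78 CPM, with no overlap, and its log2 difference was 1.26 ± 0.35 (BH P = 0.0223). BMP7 was also greater than in CycW5 cows (2.27, BH P = 0.000317), in which it was less than in NoCycW5 cows (-1.01, BH P = 0.00896), so CycNoP4 cows had the highest BMP7 mean of the 3 groups. TGFBR1, a TGF-beta receptor, was at 27.3 to 54.7 CPM against 9.61 to 32.6 CPM (log2 difference 0.75 ± 0.26, BH P = 0.0494). BMP7 was not called without library 51 (BH P = 0.0798) or 56 (BH P = 0.0901), and TGFBR1 was not called without library 51, 56 or 58. The list had 0 called members without library 51, 1 without library 56, 2 without library 58, 6 without library 64 and 2 to 4 with a NoCycW5 library left out.

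RND2, TOX and PLCD4 were lesser in CycNoP4 cows than in either other group. RND2, a small GTPase, was at 2.52, 2.0, 2.36 and 4.44 CPM in libraries 51, 56, 58 and 64 against 4.05, 7.93 and 9.47 CPM (lowest, median and highest) in NoCycW5 cows. Only library 64 reached the NoCycW5 range. The log2 difference in RND2 was -1.39 ± 0.24 (BH P = 0.00242) from NoCycW5 and -2.03 from CycW5 cows (BH P = 6.86e-05). TOX, a nuclear factor of T lymphocyte development, was at 5.6, 5.07, 10.1 and 8.39 CPM against 9.5, 19.1 and 27.9 CPM, a log2 difference of -1.36 ± 0.26 (BH P = 0.00343) and of -2.04 from CycW5 cows (BH P = 9.04e-05). Library 58 was within the NoCycW5 range for TOX and the other 3 were below it. RND2 and TOX were called with any 1 library left out.

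PLCD4, a phospholipase C, was at 8.27, 8.61, 7.26 and 18.98 CPM in libraries 51, 56, 58 and 64 against 12.9, 23.5 and 34.9 CPM (lowest, median and highest). Library 64 was within the NoCycW5 range and the other 3 below it. The log2 difference was -1.06 ± 0.28 (BH P = 0.0189) and -1.80 from CycW5 cows (BH P = 0.000457), and -1.48 from NoCycW5 cows without library 64. PLCD4 was not called without library 51, 56 or 58 (BH P = 0.0638 to 0.12). CycW5 cows had more than NoCycW5 cows of RND2 (0.64), TOX (0.68) and PLCD4 (0.74), so in these genes CycNoP4 cows lay on the other side of NoCycW5 cows from CycW5 cows.

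CLDN10 was greater in CycNoP4 cows than in either other group. It was at 118, 233, 386 and 55.5 CPM in libraries 51, 56, 58 and 64 against 24.8, 53.8 and 128 CPM (lowest, median and highest) in NoCycW5 cows (log2 difference 1.66 ± 0.48, BH P = 0.0272). Libraries 56 and 58 were above the NoCycW5 range. The CycNoP4 minus CycW5 difference in CLDN10 was 2.49 (BH P = 0.00191). Without library 51, 56 or 58 it was not called against NoCycW5 cows (BH P = 0.0891 to 0.168).

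MEOX2, B3GALT2, LTBP4 and BRINP1 were lesser in CycNoP4 cows. MEOX2, a homeobox factor of mesenchyme and vessels, was at 3.47, 4.65, 3.59 and 6.42 CPM in libraries 51, 56, 58 and 64 against 6.94, 10.5 and 39.04 CPM (lowest, median and highest), with no overlap (log2 difference -1.57 ± 0.40, BH P = 0.0173). B3GALT2, a galactosyltransferase, was at 2.88 to 4.92 CPM against 6.58 to 32.7 CPM, also with no overlap (-1.66 ± 0.39, BH P = 0.0115). LTBP4, which binds latent TGF-beta in elastic matrix, was at 87.1, 306, 101 and 193 CPM against 274, 427 and 586 CPM (-1.25 ± 0.35, BH P = 0.0248), and only library 56 reached the NoCycW5 range. BRINP1 was at 0.501 to 0.839 CPM against 0.524 to 6.11 CPM (-2.25 ± 0.54, BH P = 0.0128). With library 51 left out none of these 4 genes was called (BH P = 0.0551 to 0.148), and with library 64 left out all were. Without library 56 only LTBP4 of them was called (BH P = 0.0214), and without library 58 only B3GALT2 (BH P = 0.0282) and BRINP1 (BH P = 0.0331).

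CXCL13, the chemokine that draws B lymphocytes to follicles, was at 2.25, 0.556, 9.7 and 3.54 CPM in libraries 51, 56, 58 and 64 against 3.92, 28.1 and 152 CPM (lowest, median and highest) in NoCycW5 cows. Library 58 was within the NoCycW5 range and the other 3 were below it (log2 difference -3.73 ± 1.10, BH P = 0.0282). ICOS, a co-stimulator on activated T lymphocytes, was at 1.51 to 3.51 CPM against 2.53 to 15.8 CPM (-1.62 ± 0.51, BH P = 0.0359), and CCL25, a chemokine for T lymphocytes, at 1.37 to 1.87 CPM against 1.91 to 3.6 CPM with no overlap (-0.76 ± 0.22, BH P = 0.0265). CXCL13 and CCL25 were the 2 called of 7 tested chemokine genes. Without library 51 or 56 no chemokine gene was called and without library 58 CXCL13 alone was, and ICOS was called without library 64 (BH P = 0.0294) but not without library 51, 56 or 58. Neither CXCL13 nor ICOS was called by limma-voom or with only the 16 compared libraries. The part of lymphocyte numbers in these results was not tested, since no lymphocyte marker could be matched.

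Vascular genes were mixed. Of 6 tested receptors and growth factors of vessels RAMP2 and EDNRA were lesser and FLT1 was greater. FLT1 was not called without library 51 (log2 difference 0.20, BH P = 0.424). RAMP2, the partner of the adrenomedullin receptor, was at 85.7, 106, 73.7 and 116 CPM in libraries 51, 56, 58 and 64 against 101, 143 and 166 CPM (lowest, median and highest), a log2 difference of -0.53 ± 0.14 (BH P = 0.0194) and of -0.67 from CycW5 cows (BH P = 0.0032). EDNRA, an endothelin receptor of smooth muscle, was at 23.6, 23.6, 62.0 and 46.6 CPM against 46.4, 68.2 and 90.1 CPM (-0.86 ± 0.26, BH P = 0.0303). Libraries 51 and 58 were below the NoCycW5 range for RAMP2, and libraries 51 and 56 for EDNRA. ESAM, an adhesion molecule of endothelium, was the 1 endothelial marker called, at 23.1, 21.8, 20.5 and 34.8 CPM against 23.8, 46.5 and 60.6 CPM (-0.84 ± 0.22, BH P = 0.0173). For ESAM libraries 51, 56 and 58 were below the NoCycW5 range and library 64 within it. Without library 51 none of RAMP2, EDNRA and ESAM was called (BH P = 0.104 to 0.17), without library 56 only RAMP2 was (BH P = 0.0492), and without library 58 only EDNRA was (BH P = 0.0152).

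Several called genes of prostaglandin synthesis, inflammation and matrix were not called without library 51. PTGS2, the cyclooxygenase that makes the prostaglandin precursor, was at 513 CPM in library 51 and at 99.1, 14.2 and 19.6 CPM in libraries 56, 58 and 64, against 8.24, 22.5 and 47.1 CPM (lowest, median and highest) in NoCycW5 cows. Library 56 was also above the NoCycW5 range for PTGS2 and the other 2 were within it. PLA2G10, which frees fatty acids from phospholipids, was at 357 CPM in library 51 and at 25.4 to 76.1 CPM in the others, against 5.75 to 78.8 CPM. The log2 differences of 2.68 ± 0.72 for PTGS2 (BH P = 0.0203) and 2.15 ± 0.70 for PLA2G10 (BH P = 0.0411) were 0.82 (BH P = 0.51) and 0.92 (BH P = 0.469) without library 51. They were the 2 called of 4 tested genes of prostaglandin synthesis. PLA2G10 was not called without library 56 (BH P = 0.0794) or 58 (BH P = 0.0509) either.

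IL6, a cytokine of acute inflammation, was at 11.5 CPM in library 51 and at 0.2 to 0.916 CPM in the other CycNoP4 libraries, against 0.116 to 2.19 CPM in NoCycW5 cows. Its log2 difference was 2.31 ± 0.66 (BH P = 0.0259) with library 51 and -0.20 (BH P = 0.873) without it. SDC4, a syndecan, was at 392 CPM in library 51 and at 57.2 to 72.8 CPM in the others, against 47.0 to 67.6 CPM (log2 difference 1.33 ± 0.30, BH P = 0.0104, and 0.15, BH P = 0.623, without library 51). THBS2, a matrix thrombospondin, was at 252 CPM in library 51 and at 21.1 to 37.4 CPM in the others, against 11.2 to 66.7 CPM. For THBS2 the log2 difference of 1.85 ± 0.53 (BH P = 0.0265) was 0.28 (BH P = 0.765) without library 51. For FLT1, a receptor of vascular endothelial growth factor, that of 0.66 (BH P = 0.0259) was 0.20 (BH P = 0.424) without it. None of PTGS2, PLA2G10, IL6, SDC4, THBS2 and FLT1 was called by limma-voom.

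**Figure D5:**
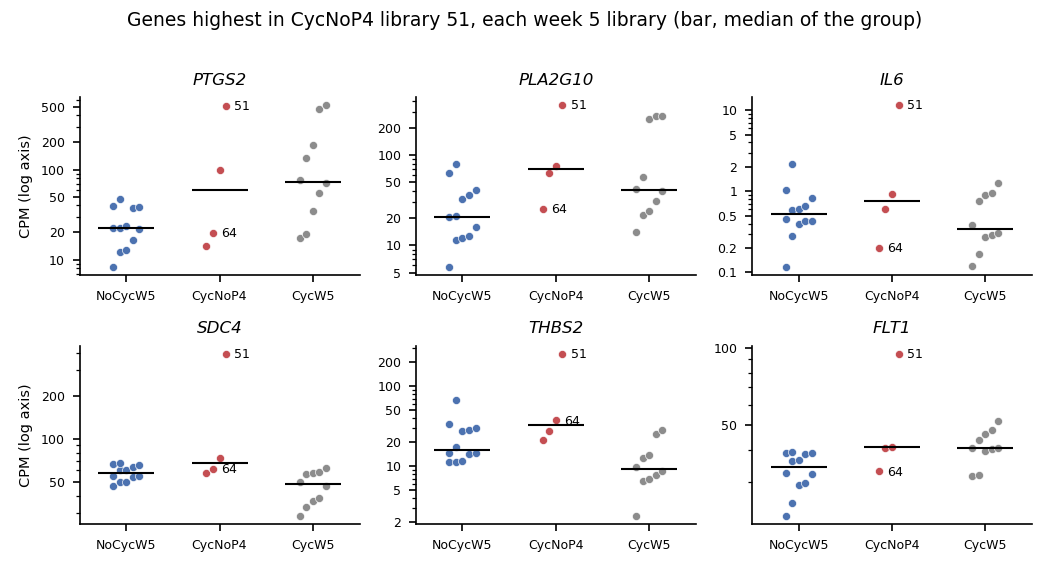
CPM on a log axis (vertical) of genes in which library 51 stood apart, for each week 5 library (points) of the NoCycW5, CycNoP4 and CycW5 groups, with the median of each group as a bar. Library 51 is at 513 CPM for PTGS2 and 392 CPM for SDC4, and the other CycNoP4 libraries are at 99.1 CPM or less for PTGS2 and 72.8 CPM or less for SDC4.

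The acute inflammation list summed to 582 CPM in library 51 and to 87.5 to 138.0 CPM in the other CycNoP4 libraries, against 66.9 to 167 CPM in NoCycW5 cows. Its 2 called members of 9 tested were both lost without library 51. Genes of lipid and steroid handling were called as well. HSD17B12, an enzyme of fatty acid elongation and of oestrone reduction, was at 230.2, 238, 129 and 93.6 CPM in libraries 51, 56, 58 and 64 against 76.9, 102 and 139 CPM (log2 difference 0.72 ± 0.20, BH P = 0.0219). ACSL3, which activates long fatty acids, was at 115, 148, 98.6 and 65.5 CPM against 36.96, 57.8 and 80.8 CPM (0.88 ± 0.24, BH P = 0.0201). Library 64 was within the NoCycW5 range for both genes, and library 58 for HSD17B12. Neither HSD17B12 (BH P = 0.163) nor ACSL3 (BH P = 0.113) was called without library 51, nor without library 56 (BH P = 0.142 and 0.121).

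Proteases that remodel the matrix showed 2 called of 5 tested, ADAM12 and ADAMTS1, both greater. ADAM12 was at 15.5, 27.4, 24.1 and 5.38 CPM in libraries 51, 56, 58 and 64 against 0.611, 2.41 and 10.6 CPM (lowest, median and highest) in NoCycW5 cows (log2 difference 2.48 ± 0.54, BH P = 0.00917). Library 64 was within the NoCycW5 range and the other 3 above it, and ADAM12 was just outside the threshold without library 56 (BH P = 0.0503). The log2 difference in ADAMTS1 was 0.75 (BH P = 0.0406), and it was not called without library 51, 56 or 58. Among 65 tested solute carriers, a family looked at after its values had been seen, 11 (16.9%) were greater, near the 12.8% of all tested genes with a symbol, and 0 lesser. This family count was 0 without library 51, 1 without library 56, 7 without library 58 and 18 greater with 3 lesser without library 64.

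Genes without a symbol but with a description in the same tables included 9 that were called. The folate receptor alpha gene (ENSBTAG00000038532) was at 899, 499, 129 and 18.4 CPM in libraries 51, 56, 58 and 64 against 12.0, 27.5 and 87.8 CPM (lowest, median and highest) in NoCycW5 cows, a log2 difference of 3.54 ± 0.58 (BH P = 0.00175). Library 64 was below the NoCycW5 median. The gene for a prolactin-inducible protein homolog (ENSBTAG00000006655) was at 85.7, 16.2, 7.64 and 2.77 CPM against 0.362, 0.799 and 5.32 CPM, a log2 difference of 4.36 ± 0.77 (BH P = 0.00258). For this gene libraries 51, 56 and 58 were above the NoCycW5 range and library 64 within it. Without library 51 the difference was 2.71 for the folate receptor gene (ENSBTAG00000038532, BH P = 0.0338) and 2.70 for the other (ENSBTAG00000006655, BH P = 0.0883), and without library 64 they were 3.94 (ENSBTAG00000038532) and 4.74 (ENSBTAG00000006655). CycW5 cows had means of 407 CPM (ENSBTAG00000038532) and 48.1 CPM (ENSBTAG00000006655), against 387 and 28.1 CPM in CycNoP4 cows. Neither gene was called between CycNoP4 and CycW5 cows (BH P = 0.947 and 0.562).

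Several lists had few or no called members. None was called of 7 tested genes of histotroph and gland secretions, of 5 apoptosis regulators or of 2 cell cycle genes. These lists hold 28, 35 and 40 genes, so most of their members were not tested and change in these processes was not excluded. Without library 64, 1 histotroph gene was greater and 1 apoptosis regulator was lesser. Of 30 cytosolic ribosomal protein genes with a symbol RPL32 was called, at 474 to 556 CPM against 534 to 845 CPM (log2 difference -0.33 ± 0.11, BH P = 0.0378). Their median log2 difference was -0.20, with 28 below 0 and 2 above. RPL32 was called without library 64 (BH P = 0.021) but not without library 51, 56 or 58. The genes ENSBTAG00000022902 and ENSBTAG00000000425, described as 60S ribosomal protein L17, have no symbol and are not in the list. They were also called lesser (log2 difference -0.44 for each, BH P = 0.0128 and 0.021). Neither was called without library 51 or 56.

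Week 9 biopsies gave the levels of the same genes after a further 4 weeks, from 3 libraries of the CycNoP4 cows and 11 of the NoCycW5 cows. All cows had been put on an ovulation synchronization protocol, which included P4, between the biopsies. It was timed so that the week 9 biopsy fell on a set day of the cycle. The groups overlapped at week 9 for every one of the 49 chosen genes. The share of all genes without overlap was not counted at week 9, and at week 5 it was only 0.871%. The overlap therefore does not show that the week 5 differences had gone. PLS1 was at 49.7, 42.9 and 74.3 CPM in the CycNoP4 libraries against 36.6, 52.3 and 106 CPM (lowest, median and highest), and LRRN1 at 259.9, 134.7 and 190.9 CPM against 39.01, 197.6 and 404 CPM. TOX was at 41.9, 44.7 and 58.7 CPM against 8.97, 34.2 and 58.6 CPM. No test was made between the weeks, because nothing in the labels links the libraries of a cow.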

How the data were processed

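Endometrial biopsies were measured by single-end, stranded mRNA sequencing. The authors trimmed the reads, aligned them with Hisat2 to the bovine build UMD3.1 and used FeatureCounts to assign them to Ensembl genes, and the deposited values are raw counts per gene and library. The labels' processing notes also list StringTie and edgeR. Tool versions and the strand setting of the counting are not given in the sources used here, so reads of overlapping or antisense genes may be shared.

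Counts of the 26 week 5 libraries were fitted in edgeR 4.0.16 (R 4.3.3) as 3 group means, with TMM scaling, filterByExpr and robust quasi-likelihood dispersions, and BH adjustment over all 15738 genes kept. Levels are TMM-normalized CPM. On simulated counts the fit recovered 49% of genes changed 2-fold and 91% of those changed 4-fold, over 15660 genes, with 9 false calls. These rates describe the simulated counts only. They may not hold for the CycNoP4 libraries, which differed widely among themselves. Library measures were compared by exact permutation tests (scipy 1.17.1). Of 325 library pairs none held repeated counts. Alternatives were DESeq2 1.42.0, limma 3.58.1, other filters, scalings and samples, and each library left out in turn. 0 columns of the table were unused.

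Symbols came from pairings in the study's supplementary tables (2729 identifiers, 2324 with a symbol); columns of fold changes and P values there were not used. No coordinates are given because no annotation of the build was used. Named genes were the 10 genes per direction with the smallest BH P at 2-fold or more and a mean of 1 CPM or more, the 5 per direction with the largest difference at 5 CPM or more, up to 3 called members of each list per direction, and ESR1, PGR and OXTR. The members and lists were chosen with earlier results of these data known. Some genes of these lists are not reported here.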

Additional observations from a re-analysis of the deposited data

Results flagged for a closer look

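Among 77 values tested for 1 library far from the other 3 of its group, 14 were so in CycNoP4 cows, 10 of them in library 51 and 4 in library 64. For normally distributed values chance gives about 1 in 20 such cases. CPM was not log-transformed and most of the genes had been chosen because they were called, so that rate may not hold here. The values also share libraries, so they are not independent.

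In library 51 the level was 41.3 CPM for RNASE9 (others 0.0334 to 4.88), 159 CPM for MCOLN3 (others 11.8 to 36.5), 392 CPM for SDC4 (others 57.2 to 72.8) and 513 CPM for PTGS2 (others 14.2 to 99.1). It was 11.5 CPM for IL6 (others 0.2 to 0.916), 94.6 CPM for FLT1 (others 32.9 to 40.9), 252 CPM for THBS2 (others 21.1 to 37.4) and 357 CPM for PLA2G10 (others 25.4 to 76.1). The summed level of the acute inflammation list was 582 CPM (others 87.5 to 138.0), and that of apoptosis regulators was 502 CPM (others 228 to 255.0). Without library 51 none of RNASE9 (BH P = 0.11), MCOLN3 (BH P = 0.104), SDC4, PTGS2, IL6, FLT1, THBS2 and PLA2G10 was called.

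In library 64 the level was 18.98 CPM for PLCD4 (others 7.26 to 8.61), 14.6 CPM for SLC30A6 (others 25.5 to 27.3) and 211 CPM for NID1 (others 124 to 138), and its value on the second principal component was -4.5 (others 64.1 to 72.7). PLCD4 and SLC30A6 in library 64 were within the range of NoCycW5 cows. NID1, a basement membrane protein, was not called without library 64 (log2 difference 0.42, BH P = 0.137).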

How the results depend on the processing

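The number of called genes was within 1.5 times 2319 with DESeq2 size factors (2378), a test in DESeq2 (3320), limma-voom (1744), no filter (2028), a stricter filter (2336), all 50 libraries (2650) and non-robust dispersions (2345). Past that range, DESeq2 called 1529 genes lesser. Limma-voom with sample weights called 3718 genes, of which 1676 were lesser and 1019 differed at least 2-fold. With only the 16 libraries compared 904 genes were called, 623 greater and 281 lesser, 403 of them at least 2-fold. With 1 library left out, the count ran from 132 to 4981, from 102 to 2636 greater, from 30 to 2345 lesser and from 80 to 1614 at least 2-fold. The lowest counts were without library 51 and the highest without library 64. The counts without libraries 51, 56, 58, 64 and 68 were 132, 369, 1212, 4981 and 3494. The share of called genes that were greater was 60.2% with all libraries, 77.3% without library 51, 81.6% without library 56, 75.7% without library 58, 52.9% without library 64 and 68.9% with only the 16 libraries. The log2 difference in IL6 ran from -0.20 (without library 51, a reversal) to 2.71 (without library 64). Giving the gene lists without library 64 was chosen after seeing the data. The cause of these changes was not tested, beyond the fewer libraries used. Scaling by library totals moved the median log2 difference of all genes from 0.00 to -0.11, so small differences are read relative to it. No paired analysis was possible because the labels give no cow or replicate number shared between the groups. Genes close to 0 in 1 group, such as SERPINA1, rest on few reads there, and their folds are imprecise.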
